A study of Mus musculus with 2 samples.

Results

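Solute carriers are the membrane proteins, named Slc, that move small molecules such as glucose, amino acids, bile acids, vitamins and metals through the cell membrane and through the membranes of organelles. The genes described here were selected on their symbol and their total count: a gene listed under a symbol that begins with Slc and a digit was a member if it had at least 500 unique molecular identifiers (UMIs) over all spots of both libraries. Of 367 such symbols listed, 171 were members, 139 had fewer UMIs and 57 were at 0. Because the total count chose the members, that a member was detected is no finding. The 4 members Slc9a3r1, Slc9a3r2, Slc4a1ap and Slc7a6os are caught by the symbol but are not transporters, and they are kept as a class of their own. At the edge of the rule, Slc9a9 with 504 UMIs and Slc25a40 with 511 were just inside, whereas Slc29a3 with 498 and Slc1a4 with 477 were just outside.

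The data are spatial transcriptomics (ST) of 1 fixed liver section from a mouse without AEG-1 in its myeloid cells (AEG-1ΔMAC) and 1 from a mouse that carries the floxed gene (AEG-1fl/fl). In AEG-1ΔMAC mice Cre expressed from the Lyz2 locus removes floxed Mtdh, which encodes AEG-1, in myeloid cells such as macrophages and neutrophils, so hepatocytes, which give most of the RNA, keep the gene in both groups. The study states a C57BL/6/J background for the floxed line and used mice of both sexes. The labels give an age of 27 weeks for both mice and a high fat/high sugar diet (HF/HSD) from 7 weeks of age, whereas the study's text speaks of control diet-fed mice for this assay, so the diet, which was the same in both groups, is not settled here. The Y-linked genes Ddx3y, Uty, Kdm5d and Eif2s3y were counted in both libraries, with 588 to 2316 UMIs each in AEG-1ΔMAC, and from 706 to 2490 in the AEG-1fl/fl section. With 1 library in each group there was no replicate and no test, and the intervals below are 95% intervals of counting error only.

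Hepatocytes are the liver cells with the widest set of solute carriers. They take up bile acids, amino acids and drugs from the blood on one side and secrete into bile canaliculi on the other, and their mitochondria exchange urea cycle and energy metabolites through the Slc25 family. Blood runs through the liver lobule from the portal tract (zone 1) to the central vein (zone 3), and hepatocytes differ along this path: urea formation and gluconeogenesis are features of zone 1, and glutamine formation and drug metabolism are features of zone 3.

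The AEG-1ΔMAC section gave 2140 spots and 45453286 UMIs after filtering, the AEG-1fl/fl section 2540 spots and 50322850 UMIs, and each spot covers several cells, which may be of different types. UMIs were summed over the spots of a library and scaled by the library's total to counts per 1000000 UMIs (CPM). The log2 ratio of CPM was taken with AEG-1ΔMAC as the numerator, and its median was 0.14 over the 8613 features with at least 500 UMIs, and albumin, Alb, took 8.80% and 14.2% of the UMIs. Every ratio between the genotypes below is therefore relative to that median, with 0 for a gene at the median. The 7 hepatocyte markers examined summed to 150962 and 210813 CPM, a relative log2 ratio of -0.62 for the sum, most of which is Alb (-0.83), while the median of the 7 single ratios was 0.22. The summed level of Kupffer cell, endothelial, stellate cell, bile duct and lymphocyte markers had relative log2 ratios between -0.17 and -0.08, vessel wall markers were at 0.30 and red cell markers at -0.44. Single markers lay farther apart than these sums: of the 5 Kupffer cell markers Marco was lower, at -1.52, and of the 5 lymphocyte markers, at few counts, the T cell genes Cd3e (0.83) and Trac (0.88) were higher and the B cell genes Cd79a (-1.14) and Ms4a1 (-1.44) lower. Other lists were spread too: the vessel wall markers Gsn and Tagln were at 1.26 and -0.38, and the stellate cell marker Colec11 was at -0.62. The endothelial marker Lyve1, on 260 UMIs, was at -0.99 and the red cell marker Hbb-bt at -1.34. The zone 3 genes used to rank spots were higher in AEG-1ΔMAC (Cyp2e1 1.21, Cyp1a2 0.91 and Oat 0.74). The sum of zone 3 landmarks that did not enter the ranking was at 0.16, most of it Gulo (0.17). Single landmarks ran from -0.33 for Tbx3 to 0.35 for Axin2, 0.84 for Rhbg and, on 93 UMIs, 1.08 for Lgr5. The zone 1 genes used to rank spots lay on both sides, from -0.62 for Hsd17b13 to 0.63 for Pck1. The 9 zone 1 landmarks outside the ranking had a sum at -0.03 and a median of single ratios of -0.23. They ran from -1.06 for Aldh1b1 to 0.18 for Pigr, and 2 were lower at 1.5-fold, Aldh1b1 and Etnppl (-0.81). Clock genes differed as well: all 6 genes examined that peak in the light phase or at dusk were higher, from 1.16 for Per2 to 2.62 for Dbp, and of the 4 that peak near dawn, Arntl (-0.85), Npas2 (-1.39) and Nfil3 (-0.74) were lower and Clock was at -0.04 (-0.14 to 0.07). The part of zone markers and clock genes in the results for solute carriers was not tested.

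The members took 1.34% of the AEG-1ΔMAC library and 1.13% of the AEG-1fl/fl library, or 13389 and 11328 CPM. Single members ranged from 4.73 to 1397 CPM in AEG-1ΔMAC, against 3.97 to 1169 CPM in AEG-1fl/fl, and had medians of 27.0 and 24.8 CPM. Probes differ in how well they bind, so these ranges do not order the genes by their RNA. The counts were concentrated: Slc27a2, a very long-chain acyl-CoA synthetase and fatty acid transport protein, Slc38a3, the glutamine transporter of hepatocytes, and Slc10a1, the sodium-driven bile acid uptake carrier, together held 26.2% of the members' UMIs in AEG-1ΔMAC. In AEG-1fl/fl the 3 members with the most UMIs held 26.4%.

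The first question was which solute carriers differed between the genotypes. A member was called different at a ratio of at least 1.5-fold with an interval on the same side of 0 on the log2 scale. Of the 171 members, 11 were higher in AEG-1ΔMAC, which is 6.43% of them beside 2.5% of all features, and 5 were lower, which is 2.92% beside 3.26% of all features. At 2-fold, 2 members were higher and 2 lower, beside 0.906% and 1.03% of all features. The median of the members was 0.06, their 5th and 95th percentiles were -0.46 and 0.67, and those of all features were -0.48 and 0.41. Thus the low ends of both distributions were close, and the high end reached further among the members. All 11 higher and all 5 lower members were on the same side in each of the 3 parts of the lobule defined below. These parts divide the same spots that gave the calls, so their agreement is no separate support. The share among all called features was not computed. As a spot sums RNA over its cells, fewer cells of a type and less RNA per cell cannot be told apart here.

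**Figure D1:**
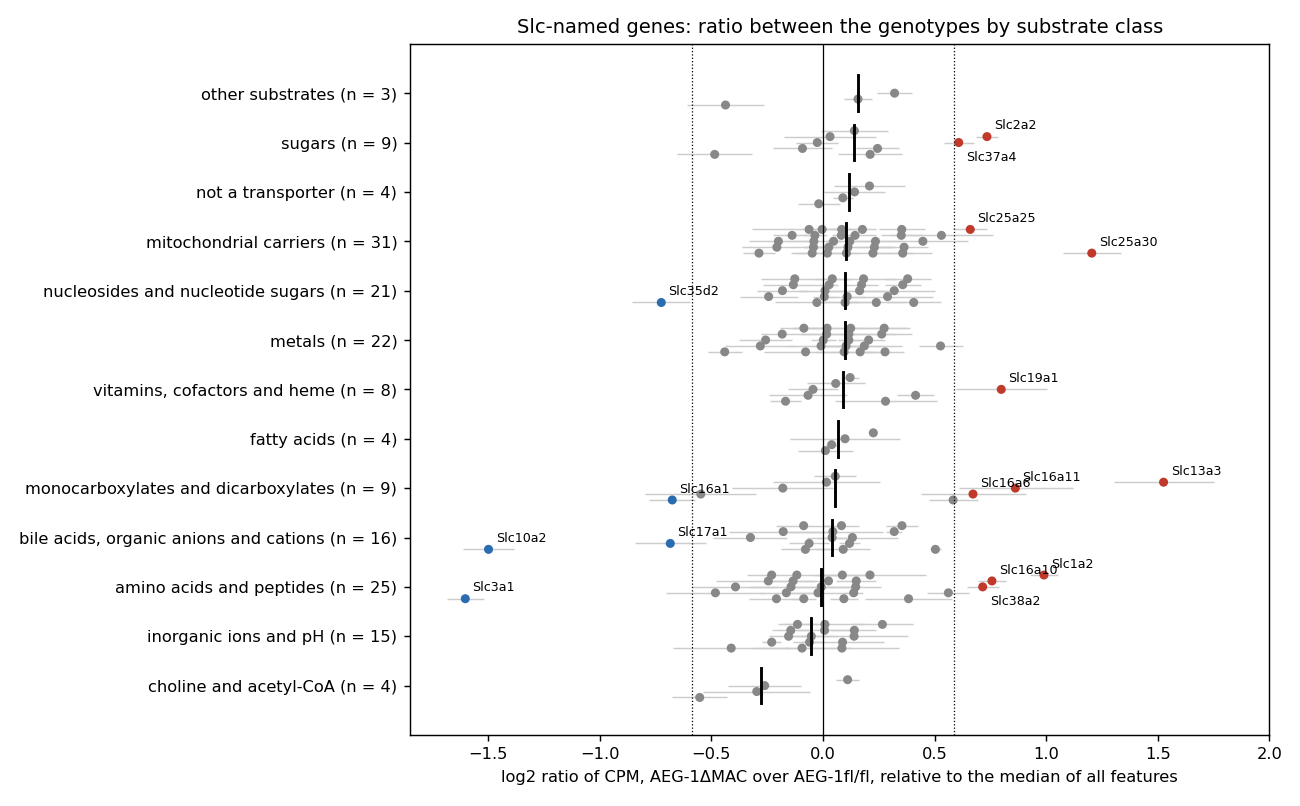
Log2 ratio of CPM between the genotypes for each of the 171 members, relative to the median of all features (x axis), by substrate class (y axis, with the number of members). Points are genes, horizontal bars 95% counting intervals, black ticks class medians and dotted lines 1.5-fold; red genes were called higher and blue genes lower in AEG-1ΔMAC, and the 16 called genes are named. Most members lie between the dotted lines in every class, and Slc3a1 and Slc10a2 on the left and Slc13a3 and Slc25a30 on the right lie farthest out.

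Among the 25 members that carry amino acids and peptides, 3 were higher and 1 was lower, around a class median of -0.01. In this class and the following ones, such counts stand beside 2.5% of all features called higher and 3.26% called lower. They rest on few genes and are not read as traits of a class. Slc1a2, which takes up glutamate together with sodium, had 127 CPM in AEG-1ΔMAC against 58.2 in AEG-1fl/fl, and its relative log2 ratio was 0.99 (95% interval 0.93 to 1.05). Slc16a10, which carries aromatic amino acids, had 122 and 65.3 CPM and a ratio of 0.76 (0.69 to 0.82). Slc38a2, the sodium-driven carrier of small neutral amino acids, had 92.3 and 51.0 CPM and 0.72 (0.64 to 0.79). The lower member was the one farthest from the median of all 171.

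Slc3a1 encodes the heavy chain of the transporter for cystine and basic amino acids, the protein affected in cystinuria. It had 34.4 CPM in AEG-1ΔMAC against 94.6 in AEG-1fl/fl, a relative log2 ratio of -1.60 (-1.69 to -1.52). The other amino acid carriers with high counts were close to the median. Slc38a3 had 1311 and 1169 CPM (0.02), Slc38a4, a further neutral amino acid carrier of hepatocytes, had 690 and 734 CPM (-0.23), and Slc7a2, which takes up cationic amino acids, had 200 and 165 CPM (0.14). Slc43a1, which carries large neutral amino acids, was at 0.38, and Slc6a9, a glycine carrier, was at 0.56 and just under 1.5-fold. Thus the class moved in both directions, and 84% of its members lay within 1.5-fold.

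Of the 9 sugar carriers, both members that serve glucose output from hepatocytes were higher. Slc2a2 (GLUT2), the main glucose transporter of the hepatocyte membrane, had 202 and 110 CPM in AEG-1ΔMAC and AEG-1fl/fl and a relative log2 ratio of 0.73 (0.69 to 0.78). Slc37a4, which brings glucose 6-phosphate into the endoplasmic reticulum for the last step of glucose release, had 96.4 and 57.3 CPM and 0.61 (0.54 to 0.68), just past 1.5-fold. The basal glucose transporter Slc2a1 was at -0.09 (-0.22 to 0.04), with 20.5 and 19.8 CPM, and Slc2a8, an intracellular hexose carrier, was at 0.21. The other members of the class lay between -0.49 (Slc45a4) and 0.24 (Slc45a3).

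The 9 carriers of monocarboxylates and dicarboxylates were the class with the smallest proportion within 1.5-fold, 55.6%, although their median was 0.06. Slc13a3, which takes up dicarboxylates such as succinate with sodium, had 14.3 CPM in AEG-1ΔMAC against 4.51 in AEG-1fl/fl, and its relative log2 ratio of 1.53 (1.31 to 1.75) was the highest of all members. Slc16a11, a monocarboxylate carrier family member, had 7.96 and 3.97 CPM (0.86, 0.61 to 1.12), and Slc16a6, described in ketone body export, had 8.62 and 4.91 CPM (0.67, 0.44 to 0.91). In the other direction, Slc16a1 (MCT1), which carries lactate, pyruvate and ketone bodies, had 27.0 and 39.1 CPM and -0.68 (-0.78 to -0.57). Slc13a2, a further dicarboxylate carrier, was at -0.55 (-0.80 to -0.30), and Slc16a7 (MCT2) at 0.06. Thus Slc13a3 and Slc13a2 lay on opposite sides of the median, as did Slc16a6 and Slc16a1.

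Among the 16 carriers of bile acids, organic anions and cations, none was higher at 1.5-fold and 2 were lower, beside 2.5% and 3.26% of all features. Slc10a2 (ASBT), which takes up bile acids in the ileum and in bile duct cells, had 18.5 CPM in AEG-1ΔMAC against 47.4 in AEG-1fl/fl, a relative log2 ratio of -1.50 (-1.61 to -1.38). It was not higher in spots rich in bile duct markers, where it was at -0.19 and -0.28 relative to other spots, and the sum of the bile duct markers was at -0.16 between the genotypes, with Sox9 at -1.05 and Spp1 at 0.10. Slc17a1 (NPT1), a phosphate and urate carrier, had 11.6 and 16.9 CPM and -0.68 (-0.84 to -0.53). Slc10a1 (NTCP), which takes up bile acids from the blood, went the other way, with 798 and 510 CPM and 0.50 (0.48 to 0.53). It stayed under 1.5-fold relative to the median of all features, whereas the log2 of its plain CPM ratio, without that centring, was 0.64, past 1.5-fold. The cation exporter Slc47a1 (MATE1) was at 0.08 and the carnitine carrier Slc22a5 (OCTN2) at 0.04. Slc22a28 belongs to a cluster of closely similar genes and its value, -0.09, is uncertain.

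The 31 mitochondrial carriers had a median of 0.11 and 2 called members, both higher, beside 2.5% of all features called higher and 3.26% lower. Slc25a30, a mitochondrial carrier, had 34.9 CPM in AEG-1ΔMAC against 13.8 in AEG-1fl/fl, a relative log2 ratio of 1.20 (1.07 to 1.33). Slc25a25, the calcium-regulated carrier of ATP-Mg and phosphate, had 78.6 and 45.1 CPM and 0.66 (0.58 to 0.74). The carriers of the urea cycle were near the median: Slc25a15, for ornithine and citrulline, was at 0.08 and Slc25a13 (citrin), for aspartate and glutamate, at 0.18. Slc25a20, which brings acylcarnitines in for fatty acid oxidation, was at 0.03, Slc25a10, the dicarboxylate carrier, at 0.08, and Slc25a47, a carrier found mainly in hepatocytes, at 0.05. The lowest member of the class was Slc25a1, the citrate carrier that delivers carbon for fatty acid synthesis, with 62.1 and 68.7 CPM and -0.29 (-0.36 to -0.21). Thus 93.5% of the mitochondrial carriers lay within 1.5-fold.

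Of the 8 carriers of vitamins, cofactors and heme, the reduced folate carrier Slc19a1 was higher, with 12.0 and 6.24 CPM and a relative log2 ratio of 0.80 (lower bound 0.60), whereas the proton-coupled folate transporter Slc46a1 was at 0.06 (-0.07 to 0.19). Of the 21 carriers of nucleosides and nucleotide sugars, Slc35d2, a Golgi carrier of nucleotide sugars, was lower, with 17.1 and 25.7 CPM and -0.72 (-0.85 to -0.59). No member was called among the 22 metal carriers, where Slc39a14, which takes up manganese, zinc and iron, was the highest at 0.53, and Slc30a1, which exports zinc, the lowest at -0.44. The manganese exporter Slc30a10 was at -0.18, the iron exporter Slc40a1 (ferroportin) at 0.12 and Slc11a1, the metal carrier of macrophage phagosomes, at -0.01 (-0.16 to 0.14).

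No member passed 1.5-fold among the 4 fatty acid transport proteins, the 15 carriers of inorganic ions, the 4 carriers of choline and acetyl-CoA, the 3 carriers of other substrates or the 4 genes that are not transporters. Slc27a2 had 1397 and 1083 CPM and a relative log2 ratio of 0.23, and Slc27a5, which also activates bile acids, had 583 and 515 CPM and 0.04. The chloride and bicarbonate exchanger Slc4a2 was at -0.15. The choline class had the lowest median, -0.28, with the choline carrier Slc44a1 at -0.55 (-0.67 to -0.43). Outside the Slc symbols, 6 organic anion transporting polypeptides (Slco) had at least 500 UMIs and 1 was higher, Slco1b2 at 0.77. Of 29 ABC genes with at least 500 UMIs, only 11 exporters on a chosen list were examined, and 0 of these passed 1.5-fold in either direction. Of 15 other genes of membrane transport chosen for comparison, 2 were higher, Mfsd2a at 2.99 and Rhbg at 0.84, and 2 were lower, Cd36 at -0.77 and Aqp8 at -0.65. Of all features 2.5% were called higher and 3.26% lower.

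The next question was where in the lobule each carrier was found. In each library, spots were ranked by the study's zone 3 markers minus its zone 1 markers, none of which is a solute carrier, and divided into 3 equal parts. Zonation is the log2 ratio of CPM, zone 3 part over zone 1 part, relative to the median of all features in that library. In both libraries 11 members were at least 1.5-fold higher in zone 3, which is 6.43% of the members beside 1.69% of all features, and 4 were at least 1.5-fold higher in zone 1, which is 2.34% beside 1.51%. Across the 171 genes, which are not replicates, the zone ratios of both libraries had a correlation of 0.87, and across all features it was 0.74.

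**Figure D2:**
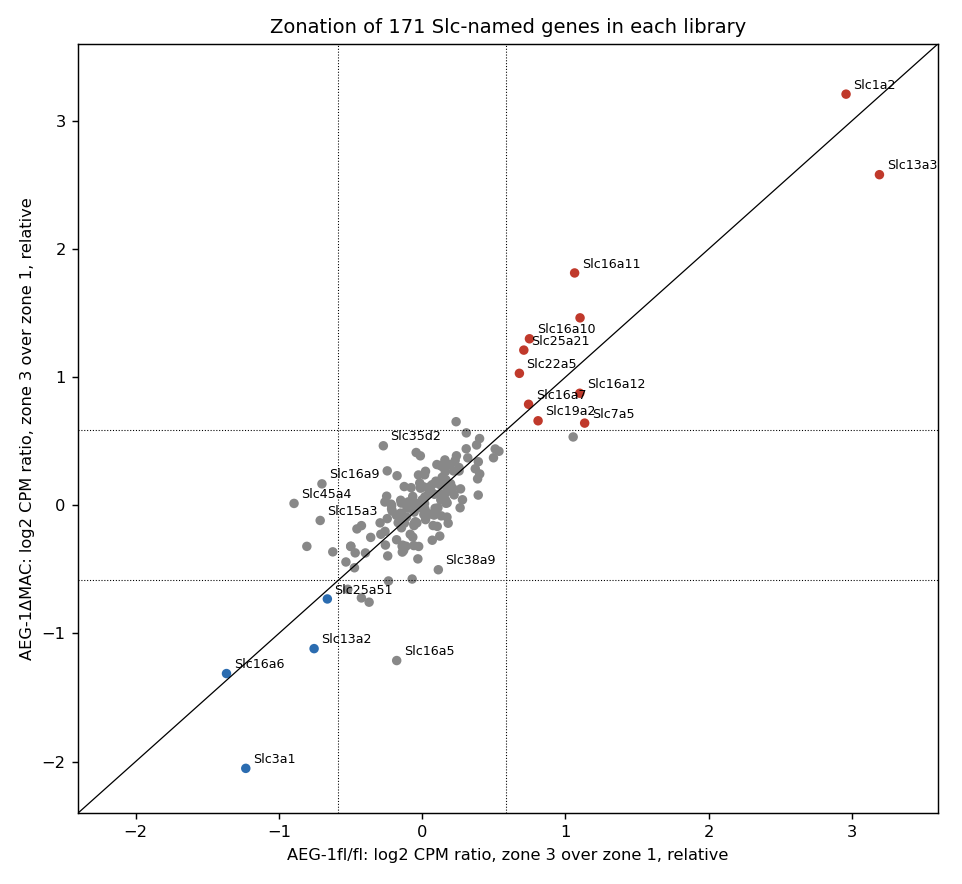
Zonation of the 171 members as the log2 ratio of CPM, zone 3 part over zone 1 part, relative to the median of all features, in AEG-1fl/fl (x axis) and AEG-1ΔMAC (y axis). Points are genes; red genes were at least 1.5-fold higher in zone 3 and blue genes in zone 1 in both libraries, dotted lines mark 1.5-fold, the diagonal marks equal zonation, and genes called for zone or for a difference in zone between libraries are named, except 1. Slc1a2 and Slc13a3 stand far above the rest at the zone 3 end in both libraries, and Slc3a1 and Slc16a6 lie at the zone 1 end.

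Slc1a2 and Slc13a3 had the largest ratios towards zone 3. In AEG-1ΔMAC Slc1a2 rose from 29.4 CPM in the zone 1 part to 67.2 in the middle and 288 in the zone 3 part, and in AEG-1fl/fl from 15.6 to 33.4 and 128 CPM. Its zone ratio was 3.21 (3.07 to 3.35) and 2.96 (2.77 to 3.15). Glutamate uptake belongs, as background, to the ring of hepatocytes around the central vein that forms glutamine. Slc13a3 rose from 4.84 to 7.75 and 30.6 CPM in AEG-1ΔMAC and from 1.03 to 2.81 and 9.85 CPM in AEG-1fl/fl, with ratios of 2.58 (2.22 to 2.96) and 3.19 (2.47 to 4.01). The zone 1 value of Slc13a3 in AEG-1fl/fl rested on 17 UMIs.

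The promoters of these genes, and that of Slc3a1, which lay at the other end in zone and in genotype, are shown because the 3 genes had the strongest zonation of the members. They are RefSeq sequences of GRCm38.p6, the assembly of mm10, from 250 bases before to 50 bases after the transcription start, read 5′ to 3′ on the strand of the gene, and capitals mark a match to CTTTGAT, the core of the TCF/LEF motif through which β-catenin acts, or to CACGTG, the core of the E-box, on either strand. The windows are chr2:102706188-102706487 on the plus strand for Slc1a2, chr2:165473148-165473447 on the minus strand for Slc13a3 and chr17:85028097-85028396 on the plus strand for Slc3a1. The start used for Slc1a2 lies inside the span that GENCODE M21 gives the gene, from 102658659 to 102790784 on chromosome 2, so that annotation holds a start further upstream.
Slc1a2: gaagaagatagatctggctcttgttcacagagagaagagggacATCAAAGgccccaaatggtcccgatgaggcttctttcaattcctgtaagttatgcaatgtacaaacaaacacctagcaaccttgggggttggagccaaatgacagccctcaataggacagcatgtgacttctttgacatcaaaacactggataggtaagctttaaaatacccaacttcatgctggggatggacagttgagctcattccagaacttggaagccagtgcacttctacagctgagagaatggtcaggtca
Slc13a3: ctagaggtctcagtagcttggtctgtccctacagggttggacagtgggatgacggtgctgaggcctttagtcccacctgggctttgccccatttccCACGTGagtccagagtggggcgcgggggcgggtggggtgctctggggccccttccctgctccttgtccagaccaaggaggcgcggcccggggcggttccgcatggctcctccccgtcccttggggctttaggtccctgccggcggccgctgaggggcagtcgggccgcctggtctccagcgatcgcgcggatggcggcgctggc
Slc3a1: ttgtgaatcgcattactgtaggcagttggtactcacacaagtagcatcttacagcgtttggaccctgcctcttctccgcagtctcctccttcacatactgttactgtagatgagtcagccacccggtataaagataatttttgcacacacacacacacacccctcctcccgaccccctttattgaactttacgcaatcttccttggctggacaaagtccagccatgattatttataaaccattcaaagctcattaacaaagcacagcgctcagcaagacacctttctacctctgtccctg

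Slc1a2 had 1 TCF/LEF match, at position -207 from the start, Slc13a3 had 1 E-box match, at position -154, and Slc3a1 had neither. The sequence of Slc13a3 was rich in CG pairs, with 22 of them, beside 1 in that of Slc1a2 and 7 in that of Slc3a1. Of the 131 members with a RefSeq promoter, 3.82% held CTTTGAT and 14.5% held CACGTG, beside 3.72% and 7.24% of 27025 promoters. Of the 8 zone 3 members with a promoter in the table, Slc1a2 held CTTTGAT, and Slc13a3 and Slc16a12 held CACGTG. A match is a run of letters in this window and says nothing of whether a factor binds there.

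**Figure D3:**
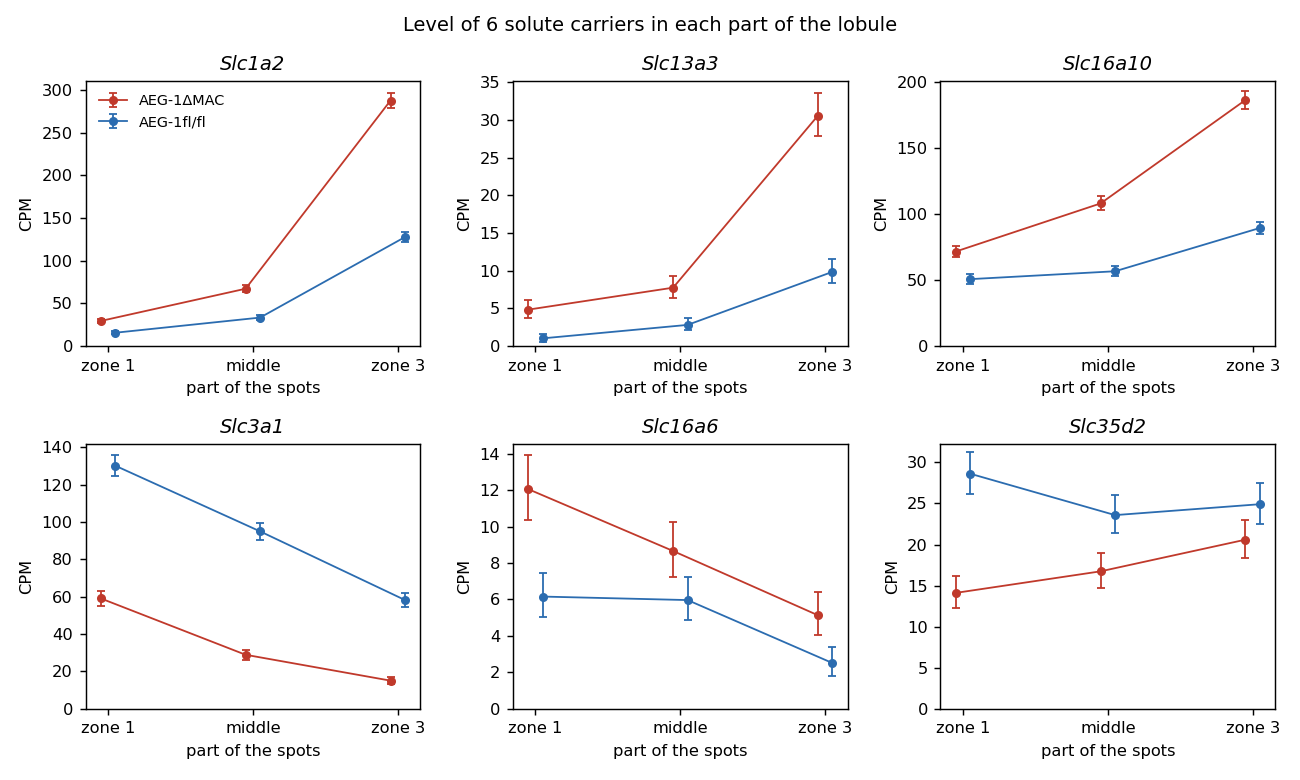
Level in CPM (y axis, from 0) of 6 members in the zone 1, middle and zone 3 parts of the spots (x axis) in AEG-1ΔMAC (red) and AEG-1fl/fl (blue); bars are 95% counting intervals. Slc1a2, Slc13a3 and Slc16a10 rose towards zone 3 and Slc3a1 and Slc16a6 fell towards it in both libraries, whereas Slc35d2 rose from 14.1 to 20.6 CPM in AEG-1ΔMAC and went from 28.6 to 24.9 CPM in AEG-1fl/fl.

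The other zone 3 members came from several classes. Slc16a10 rose from 71.5 to 186 CPM in AEG-1ΔMAC and from 50.7 to 89.4 CPM in AEG-1fl/fl, ratios of 1.30 and 0.75. The ratios of Slc16a11 were 1.81 and 1.06, and those of Slc16a12, a creatine carrier, 0.87 and 1.10. The lactate and pyruvate carrier Slc16a7 was at 0.79 and 0.74, the carnitine carrier Slc22a5 at 1.03 and 0.68, and the thiamine carrier Slc19a2 at 0.66 and 0.81. Slc25a21, the oxodicarboxylate carrier of mitochondria, was at 1.21 and 0.71, and Slc7a5, the light chain of a large neutral amino acid exchanger, at 0.64 and 1.13 on few counts (6.31 and 4.95 CPM over whole sections). In AEG-1ΔMAC the ratio was the larger one for 7 of the 11 zone 3 members. Among these 7, the interval of the difference held 0 for Slc16a7 (-0.19 to 0.28), Slc22a5 (-0.21 to 0.91) and Slc25a21 (-0.07 to 1.07). The share over all features called for zone 3 was not computed, so this count is not read as a trait of the members.

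Slc3a1 led the zone 1 members. It fell from 59.1 CPM in the zone 1 part to 28.9 in the middle and 15.1 in the zone 3 part in AEG-1ΔMAC, and from 130.1 to 95.0 and 58.2 CPM in AEG-1fl/fl, ratios of -2.05 (-2.27 to -1.84) and -1.23 (-1.34 to -1.12). Slc16a6 fell from 12.1 to 5.13 CPM and from 6.16 to 2.51 CPM (-1.31 and -1.37). Slc13a2 was at -1.12 and -0.75, so the 2 dicarboxylate carriers of the Slc13 family lay at opposite ends of the lobule. Slc25a51, which brings NAD into mitochondria, was at -0.73 and -0.66, and Slc7a2, at -0.66 and -0.52, passed 1.5-fold in AEG-1ΔMAC only. Of the remaining hepatocyte carriers with high counts, Slc10a1 (0.04 and 0.13), Slc27a2 (0.16 and 0.07) and Slc27a5 (-0.07 and -0.14) were nearly even, and Slc38a3 (-0.40 and -0.24), Slc25a47 (-0.49 and -0.47) and Slc37a4 (-0.32 and -0.50) leaned to zone 1.

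The median zone ratio over all 171 members was 0.02 for AEG-1ΔMAC and 0.01 for AEG-1fl/fl, and most classes had members on both sides of 0. The highest class medians were those of the 3 carriers of other substrates, 0.37 and 0.32, followed by bile acids, organic anions and cations, 0.21 and 0.12, vitamins, cofactors and heme, 0.20 and 0.14, and monocarboxylates and dicarboxylates, 0.17 and 0.13. In the class of bile acids, organic anions and cations 9 of 16 members were above 0 in both libraries and 1 was below, Slc17a2, a phosphate and organic anion carrier, at -0.31 and -0.26. Of the 22 metal carriers, with medians of -0.07 and -0.12, 3 were above 0 in both libraries and 12 below. Of all 171 members 68 were above 0 in both libraries and 61 below, and the shares over all features were not computed. The monocarboxylate and dicarboxylate class held 4 zone 3 members and 2 zone 1 members among its 9. Of the 9 members named Slc16a, 5 were zoned in both libraries and 4 were called between the genotypes. Of all features 1.69% were zoned to zone 3 and 1.51% to zone 1, and 2.5% were called higher and 3.26% lower. No member zoned at 1.5-fold in both libraries was found among the carriers of sugars, fatty acids, metals, inorganic ions, choline and acetyl-CoA, nucleosides and nucleotide sugars or other substrates.

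Some genes were called for both zone and genotype. Of the 11 members higher in AEG-1ΔMAC, 4 were zone 3 members (Slc1a2, Slc13a3, Slc16a10 and Slc16a11) and 1 was a zone 1 member (Slc16a6), and of the 5 lower members 1 was a zone 1 member (Slc3a1). Of all features 1.69% were called for zone 3 and 1.51% for zone 1. Their shares among all features called by genotype were not computed, so these counts are not read as a trait of the members. All 11 zone 3 members had a relative genotype ratio above 0, from 0.04 for Slc22a5 to 1.53 for Slc13a3, beside 75.2% of the 145 features called for zone 3. The zone 3 genes used to rank spots were higher in the same library. Of the 4 zone 1 members 2 were above 0, beside 40% of the 130 features called for zone 1. Within the zone 1 part alone, where the ratio was taken against the median of that part, Slc1a2 was at 0.78 and Slc13a3 at 2.11, and within the zone 3 part at 1.03 and 1.49. For Slc3a1 the ratio was -1.27 in the zone 1 part, -1.87 in the middle and -2.09 in the zone 3 part. Slc25a25 was at 0.84, 0.77 and 0.33, and Slc2a2 at 0.84, 0.70 and 0.66, in the same order.

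Zonation was then compared between the libraries as the difference of their zone ratios. The difference was at least 1.5-fold towards zone 3 in AEG-1ΔMAC for 5 members (2.92%, beside 0.93% of all features) and towards zone 1 for 3 members (1.75%, beside 1.85%). Towards zone 3 these were Slc45a4 (0.91, interval 0.50 to 1.32), Slc16a9 (0.87), Slc16a11 (0.75), Slc35d2 (0.74) and Slc15a3 (0.59). Slc45a4, placed with the sugar carriers by its family, fell from 18.4 CPM in the zone 1 part to 10.4 CPM in the zone 3 part of AEG-1fl/fl and was even in AEG-1ΔMAC, with 10.7 and 11.4 CPM. Towards zone 1 they were Slc16a5 (-1.03, -1.59 to -0.48), Slc3a1 (-0.82, -1.06 to -0.58) and Slc38a9 (-0.62), a lysosomal arginine sensor. Spots were ranked within each library, and the zone axes were not alike. The 6 zone 1 genes used for ranking had a median zone ratio of -1.77 for AEG-1ΔMAC, beside -1.23 for AEG-1fl/fl. For zone 1 landmarks outside the ranking the medians were -1.81 and -1.32, although Cps1 went slightly the other way. The 3 zone 3 genes used for ranking had medians of 2.09 and 2.42. Kupffer cell markers had medians of -0.49 and -0.72, in the same order, and Slc15a3 was higher in Kupffer cell spots, as given below. The part of this in the differences of single members was not tested. Slc16a5 (MCT6) fell from 10.1 to 4.60 CPM in AEG-1ΔMAC and was near even in AEG-1fl/fl, with 7.19 and 6.67 CPM. For Slc13a3 the difference was -0.61, with an interval from -1.42 to 0.19. These counts depended on how spots were used: they were 6 and 6 with the outer 10% of spots at each end, and 8 and 2 as the mean over spots. Slc45a4, Slc35d2, Slc16a5 and Slc3a1 were called under each of the 6 other settings of scaling and spots, whereas Slc15a3, Slc16a9, Slc16a11 and Slc38a9 were lost under at least 1 of them.

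Of the members 0.585%, and of all features 0.732%, had zone ratios on opposite sides in the libraries with both intervals away from 0. Slc35d2 was the only such member. It was at 0.46 (0.21 to 0.72) in AEG-1ΔMAC and at -0.27 (-0.47 to -0.08) in AEG-1fl/fl.

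Last, carriers of cells other than hepatocytes were sought in the 5% of spots richest in bile duct or Kupffer cell markers. The bile duct spots, 107 for AEG-1ΔMAC and 127 for AEG-1fl/fl, lay mostly in the zone 1 part, 90 and 82 of them. Vessel wall markers were higher in the same spots, all 5 of them in both libraries, with a sum of 348 CPM inside and 36.0 outside in AEG-1ΔMAC and of 212 and 27.4 in AEG-1fl/fl, and bile duct and vessel wall cells cannot be told apart there. Lymphocyte markers summed to 67.3 and 31.7 CPM, and to 50.4 and 31.0 CPM. Red cell markers summed to 2361 CPM inside and 654 outside in AEG-1ΔMAC, but to 749 and 912 in AEG-1fl/fl. In these spots, 4 members were at least 1.5-fold higher than in other spots in both libraries, which is 2.34% beside 3.72% of all features. Slc25a4, an ADP/ATP carrier known from muscle and heart, had 55.0 and 17.5 CPM inside and outside these spots in AEG-1ΔMAC and 46.8 and 18.5 CPM in AEG-1fl/fl, relative log2 ratios of 1.53 (1.24 to 1.80) and 1.23 (lower bound 0.96). The fatty acid transport protein Slc27a1 was at 1.01 and 0.82, the choline carrier family member Slc44a2 at 0.82 and 0.74, and the purine nucleobase carrier Slc43a3 at 0.61 and 0.59. When the bile duct spots were compared only with other spots of the zone 1 part, Slc25a4, Slc27a1 and Slc43a3 passed. The part of vessel wall, lymphocyte and red cell RNA in these ratios was not tested.

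In the Kupffer cell spots, 4 members were higher in both libraries, again 2.34%, beside 1.31% of all features. Lymphocyte markers summed to 51.0 CPM inside and 32.6 outside in AEG-1ΔMAC, and to 42.3 and 31.6 in AEG-1fl/fl. Stellate cell markers summed to 492 and 403 CPM, and to 437 and 407 CPM. The part of these other cells in the ratios below was not tested. Slc11a1 had 33.2 CPM in these spots and 14.7 CPM elsewhere in AEG-1ΔMAC, and 35.2 and 13.3 CPM in AEG-1fl/fl, ratios of 1.21 (0.83 to 1.57) and 1.43 (1.05 to 1.79). Slc15a3, which moves peptides and histidine out of lysosomes, was at 0.61 (lower bound 0.20) and 1.31 (0.96 to 1.65). Slc7a8, a neutral amino acid exchanger, was at 0.97 and 1.10, and Slc9a9, a sodium and proton exchanger of endosomes, at 1.28 (0.57 to 1.92) and 0.81 (0.06 to 1.48) on few counts. Between the genotypes over whole sections, Slc11a1 and Slc15a3 were both at -0.01, Slc7a8 at -0.24 and Slc9a9 at -0.41, whereas the summed Kupffer cell markers were at -0.09 and Marco, 1 of the 5, was at -1.52, with 13.9 and 36.1 CPM. Thus none of these 4 members passed 1.5-fold between the genotypes.

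**Figure D4:**
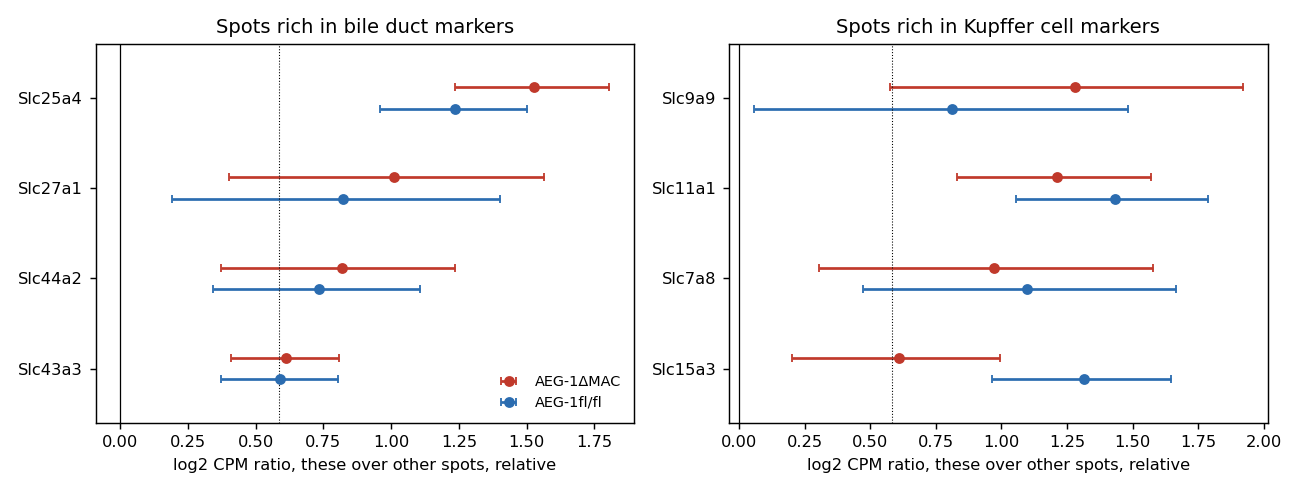
Log2 ratio of CPM between marker-rich spots and all other spots of the same library, relative to the median of all features (x axis), for the 4 members called in spots rich in bile duct markers, where vessel wall markers were also higher (left) and the 4 called in Kupffer cell spots (right; y axis). Points are ratios in AEG-1ΔMAC (red) and AEG-1fl/fl (blue), bars are 95% counting intervals, and the dotted line marks 1.5-fold. Slc25a4 is highest in bile duct spots in both libraries, and the widest intervals are those of Slc9a9.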

How the data were processed

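ST libraries were made by the authors with the 10x Visium FFPE kit from 1 section per genotype, and Space Ranger 2.0.1 with mm10 and Seurat 4.3.0 are named in the submitters' processing notes. The deposited matrices hold raw UMI counts for 19465 features and the barcodes under tissue. Both libraries list 1782 barcodes in common, since a barcode codes a position on a capture area. Spots with at most 50000 UMIs and 100 to 7000 genes were kept, the limits the study states, which removed 9 of 2149 and 3 of 2543 deposited spots. The study gives the deposited numbers as those after its filter, so 2140 and 2540 spots are not the study's set. Counts were summed and scaled to CPM with Python 3.11.15, NumPy 2.4.6, SciPy 1.17.1 and pandas 2.3.3. Ratios have exact conditional binomial intervals, CPM have exact Poisson intervals and differences of zone ratios have intervals from the 4 UMI sums, all at 95%. TMM factors came from edgeR 4.0.16 in R 4.3.3, used for scaling only. No p-value was computed, because spots are not replicates of a mouse. The ratio code was tested on simulated data.

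Coordinates are those of GENCODE M21, and 171 of 171 members matched by Ensembl identifier. The genes named are the 6 highest and 6 lowest by genotype, the 6 most zoned at each end, the 4 with the largest zone differences each way, those called in marker-rich spots, 29 members of a fixed list of 32 transporters, and the genes nearest the count minimum. Further called members and comparison genes were named after their values were seen. Members, classes and lists were chosen with earlier results of these data known, and classes were merged and the 4 genes that are not transporters set apart after the files were read. Mpc1, Glul, Cyp2a5 and Hba-a1 were not used here. Of the members called for zonation, 1 is counted but not reported by name.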

Additional observations from a re-analysis of the deposited data

Results flagged for a closer look

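The zone ratio of Slc35d2 was above 0 in AEG-1ΔMAC and below 0 in AEG-1fl/fl, a difference of 0.74 on the log2 scale. It drew attention because the libraries lay on opposite sides. This held, with both intervals away from 0, for 0.585% of the members, beside 0.732% of all features. With 1 library per genotype the difference was not tested.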

How the results depend on the processing

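Settings were changed one at a time, and all had been planned. The number of higher and lower members was 11 and 5 in the report. Without centring on the median of all features it was 17 and 2, and the median of the members moved from 0.06 to 0.20, since 1 shift of 0.14 applies to every gene. Slc16a1, Slc17a1 and Slc35d2 then no longer passed 1.5-fold, and Slc10a1 was among those that newly passed as higher. With TMM factors it was 12 and 5. At 2-fold it was 2 and 2, and among members with at least 2000 UMIs 7 were higher, both by construction. The other 13 of the 16 genotype calls were kept under every setting of scaling and spots that applied to them. At 2-fold, 4 members were zoned to zone 3 and 2 to zone 1 in both libraries, and 1 differed in zone between them in place of 8. With the outer 10% of spots at each end, 11 members were zoned to zone 1 in place of 4, and the ends are farther apart by construction. Of the 15 zone calls, 10 were kept under all 6 other settings of scaling and spots. Slc25a21, Slc25a51 and Slc7a5 were lost when spots were ranked by the landmarks, Slc22a5 as the mean over spots, and Slc19a2 without the spots richest in bile duct and vessel wall markers; the cause was not tested. In bile duct spots, the richest 2% gave 5 members, 3 of them among the 4 reported, without Slc43a3. For named members, 359 of 403 genotype ratios and 538 of 635 zone ratios taken under these settings stayed within the counting error of the reported value. No called ratio changed sign among them, and Slc13a3 gave no ratio for the outer 10% in AEG-1fl/fl, where its zone 1 end was at 0 UMIs.

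No paired analysis was possible because each genotype had 1 library. Depth sets what could be seen: for Slc25a40, with 511 UMIs, the genotype interval ran from -0.32 to 0.19, and zone and marker-rich spot ratios of such members rest on fewer UMIs.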
